A study of Mus musculus with 24 samples.

Results

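The 10 genes described here are p53 targets and growth arrest genes: the cyclin-dependent kinase inhibitor Cdkn1a (p21), the p53 antagonist Mdm2, the p53-induced cyclin Ccng1, the stress sensors Gadd45a, Gadd45b and Gadd45g, the antiproliferative factor Btg2, the polo-like kinases Plk2 and Plk3, and the secreted stress cytokine Gdf15. They were chosen by name, as every probe whose accession maps to one of them, and make up 10 of the 27958 genes tested. The array carried 11 probes for them, 2 for Cdkn1a and 1 for each of the other genes. The brighter Cdkn1a probe was used unless stated otherwise, and the probe in use stood well above background on all 24 arrays for every one of the 10 genes.

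The kidneys came from age-matched male mice that the labels call young adult and that the study's methods place at a few weeks of age, 6 from mgb+/+ controls and 18 from mgb-/- (megabladder) animals, whose bladder does not empty normally and whose kidneys become hydronephrotic. Renal ultrasound placed 7 of the mgb-/- kidneys in the mild, 5 in the moderate and 6 in the severe grade. Total RNA of a single whole kidney was hybridised to each one-colour array, with neither treatment nor pooling. Whether some animals gave 2 kidneys is not stated in the labels, so the p-values measure the spread between kidneys. A value below is the log2 signal of a probe minus the 75th percentile of its array, and values compare kidneys for one probe, not one probe with another. In whole kidneys, fewer cells of a type and less RNA per cell cannot be told apart.

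The arrays lay on 3 slides, each with 2 control and 6 mgb-/- kidneys. Between 56.6% and 71.5% of spots were well above background on an array, the scaling percentile lay between 492 and 962 intensity units, and 0 spots were saturated. All 9 kidney epithelium markers, among them Lrp2 and Slc34a1 of the proximal tubule, were well above background in all 24 kidneys.

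The transcription factor p53 is stabilised when DNA is damaged or a cell is otherwise stressed, and it then drives genes that stop the cell cycle, repair DNA or kill the cell. Cdkn1a holds cyclin-dependent kinases inactive, and Mdm2 marks p53 for degradation and so closes a feedback loop. Several of these genes have other inducers. Gadd45b and Gadd45g respond to cytokines and growth factors, Btg2, Plk2 and Plk3 behave as immediate early genes after mitogens or stress, and Gdf15 is also a target of the integrated stress response through ATF4. In injured kidney tubules Cdkn1a is known to slow re-entry into the cell cycle.

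Promoter windows of 250 bases before to 50 bases after each annotated start (RefSeq, GRCm38.p6) are given for 3 genes. For Cdkn1a, 1 of its 2 windows is given, which holds a pair of p53 decamers. The windows of Btg2 and Plk2 both hold a cyclic AMP response element. Whether these motifs bear on the differences below was not tested. Capitals mark the motif, in Cdkn1a 2 exact matches to the p53 decamer with the bases between them and in the other windows TGACGTCA. Decamers with a mismatch were not searched for and stay in lower case.
Cdkn1a, chr17:29090729-29091028, plus strand: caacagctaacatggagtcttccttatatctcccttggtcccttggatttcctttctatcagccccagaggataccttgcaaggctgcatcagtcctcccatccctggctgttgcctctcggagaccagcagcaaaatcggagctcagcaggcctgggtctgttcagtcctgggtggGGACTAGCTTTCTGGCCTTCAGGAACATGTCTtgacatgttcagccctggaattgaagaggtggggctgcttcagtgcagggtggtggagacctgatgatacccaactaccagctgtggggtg
Btg2, chr1:134079106-134079405, minus strand: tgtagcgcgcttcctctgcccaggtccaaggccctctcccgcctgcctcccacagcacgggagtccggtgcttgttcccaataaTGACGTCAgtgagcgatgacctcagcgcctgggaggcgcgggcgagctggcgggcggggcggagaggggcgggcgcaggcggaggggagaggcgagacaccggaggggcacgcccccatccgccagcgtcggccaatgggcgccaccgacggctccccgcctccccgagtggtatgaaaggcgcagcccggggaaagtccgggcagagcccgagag
Plk2, chr13:110394794-110395093, plus strand: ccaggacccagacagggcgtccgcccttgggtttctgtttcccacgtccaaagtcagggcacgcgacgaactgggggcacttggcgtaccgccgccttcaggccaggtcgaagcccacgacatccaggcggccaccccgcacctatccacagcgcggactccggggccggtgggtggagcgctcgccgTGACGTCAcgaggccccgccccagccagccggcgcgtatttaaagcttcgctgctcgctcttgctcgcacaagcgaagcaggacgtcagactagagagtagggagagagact
Both strands of 32851 such windows were searched for 6 motifs, and a match is a description of the letters only. The p53 full site, which is a pair of the decamers counted separately, was present in 0.0731% of windows and among the 10 genes only at Cdkn1a, starting at position -73 from the first of its 2 annotated starts. The window of the second Cdkn1a start held none of the 6 motifs. A single p53 decamer, found in 8.36% of windows, was also present at Mdm2, Ccng1 and Gadd45a. TGACGTCA was present in 1.79% of windows and lay at -166 in Btg2 and at -62 in Plk2. The EGR motif GCGNGGGCG, present in 5.55%, lay at -131 in Btg2 and at -30 in Gadd45b. The AP-1 motif TGANTCA (7.81% of windows) and the CArG box bound by serum response factor (1.63%) had no match in the windows of the 10 genes, and the windows of Gadd45g, Plk3 and Gdf15 held none of the 6 motifs.

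In mgb-/- against control kidneys, 5 of the 10 genes rose (Cdkn1a, Btg2, Plk3, Gadd45b and Gadd45g) and 1 fell (Ccng1) at an adjusted p under 0.05. Over all genes 5.22% rose and 7.9% fell. Each of the 5 rises was at least 2-fold, a size that 1.82% of all genes reached with the same p. The median log2 difference was 1.06 over the 10 genes and 0.0098 over all genes. The study listed all 5 among its differentially expressed genes from these same kidneys and followed up Cdkn1a and Gadd45b, so their direction here is not independent evidence. The 10 genes were chosen with earlier results of these data known, so their excess over all genes is not independent evidence either. The canonical feedback gene Mdm2 did not pass the test, nor did Gadd45a, Plk2 and Gdf15.

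**Figure D1:**
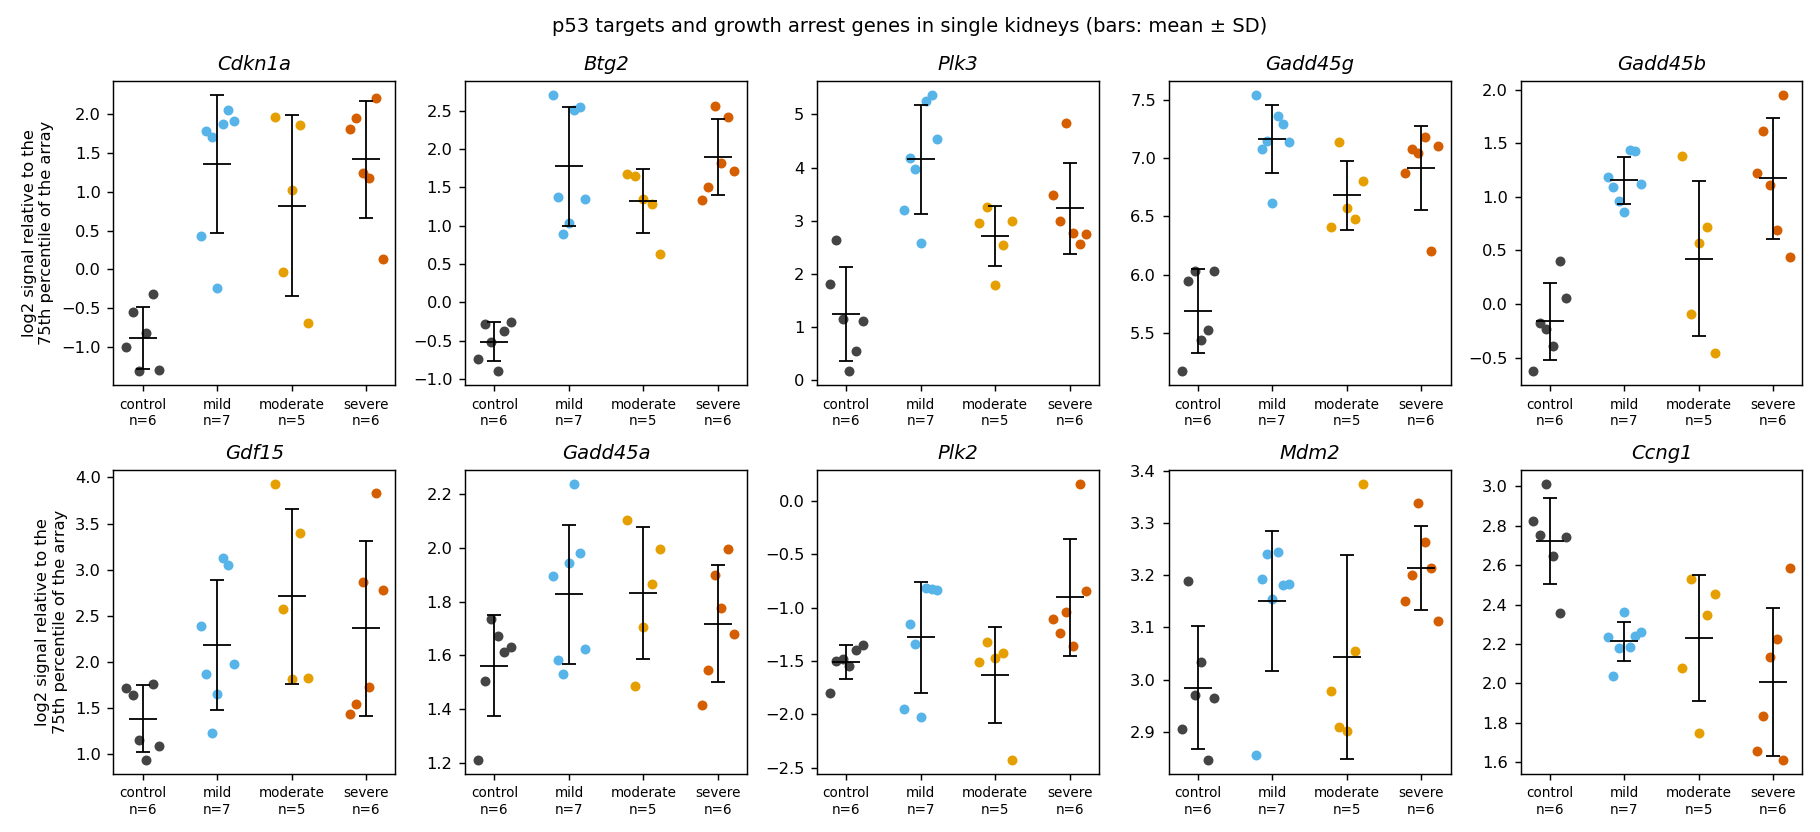
Log2 signal relative to the 75th percentile of the array (vertical axis, its range set for each gene) for the 10 genes in each of 24 kidneys, by group. Points are kidneys, and bars give mean ± SD. All mgb-/- kidneys lie above all control kidneys for Btg2 and Gadd45g, and each mgb-/- kidney lies below the control mean for Ccng1.

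Cdkn1a blocks the kinases that carry cells from G1 into S phase. In the 6 control kidneys its value had a minimum of -1.31, a median of -0.92 and a maximum of -0.31. It ran from -0.24 to 2.06 (median 1.78) in mild kidneys and from 0.13 to 2.21 (median 1.53) in severe kidneys, and was 1.97, -0.04, 1.03, 1.86 and -0.70 in the 5 moderate kidneys. All mild and severe kidneys lay above the highest control, whereas moderate replicate 5 fell among the controls. The mgb-/- kidneys were 4.33-fold higher (log2 difference 2.12, SE 0.38, n = 18 and 6, limma adjusted p = 0.0016), and 18 of 18 exceeded the control mean. Within the slides the log2 difference was 2.23, 1.496 and 2.62.

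The rise is that of the brighter probe, designed to the transcript NM_007669, and the second probe, designed to NM_001111099, did not pass the test. The second probe had a mean of -4.62 ± 0.50 (SD, n = 6) in control kidneys and of -5.10 ± 0.32 (n = 7), -5.22 ± 0.36 (n = 5) and -4.69 ± 0.81 (n = 6) in the mild, moderate and severe grades, and its groups overlapped throughout. Its log2 difference in mgb-/- against control kidneys was -0.37 (SE 0.25, limma adjusted p = 0.36). This probe was dim: it was not well above background in mild replicate 1 and severe replicates 2 and 4. Whether the probes differ was not tested. RefSeq lists 2 starts for Cdkn1a, and the table used does not pair them with the transcripts. Averaging both probes lowered the log2 difference from 2.12 to 0.87, which still passed.

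**Figure D2:**
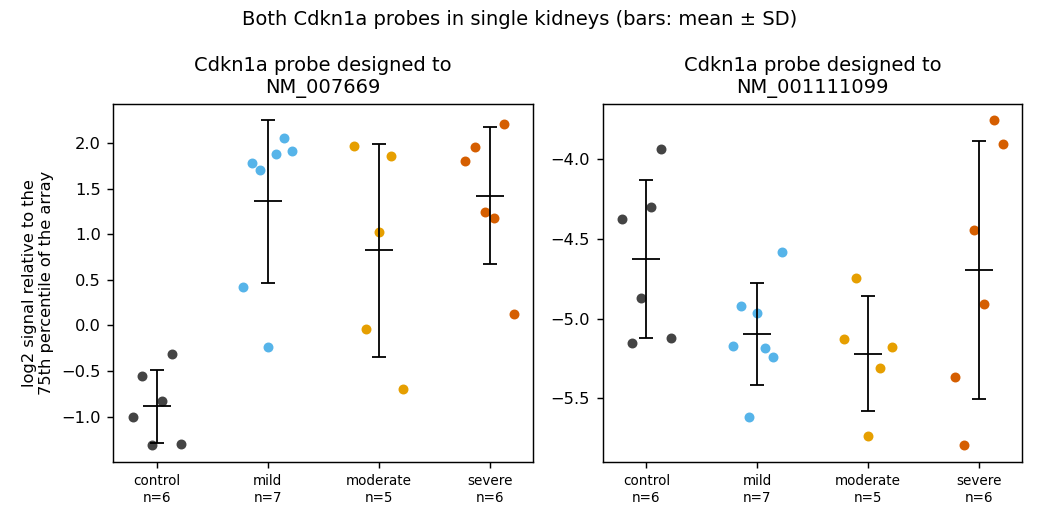
Log2 signal of the 2 Cdkn1a probes relative to the 75th percentile of the array (vertical axes with separate ranges) in each of 24 kidneys. Points are kidneys, and bars give mean ± SD. The left probe separates the control kidneys from all mild and severe kidneys, while the groups of the right probe overlap.

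Mdm2, the ubiquitin ligase that p53 induces against itself, stayed in a narrow range. Its value lay between 2.85 and 3.19 (median 2.97) in control, 2.86 and 3.25 (median 3.18) in mild and 3.11 and 3.34 (median 3.21) in severe kidneys, and was 2.98, 2.91, 2.90, 3.06 and 3.38 in the moderate ones. The groups overlapped in every comparison. The log2 difference of 0.16 in mgb-/- kidneys (95% interval -0.002 to 0.32) did not pass (limma adjusted p = 0.18), and the interval leaves out a rise of the size seen for Cdkn1a.

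Ccng1, a cyclin that recruits a phosphatase to Mdm2 and is a classical p53 target, was the single gene of the 10 to fall. Control kidneys ranged from 2.36 to 3.01 (median 2.75), mild kidneys from 2.04 to 2.36 (median 2.23) and severe kidneys from 1.61 to 2.58 (median 1.98). The moderate values were 2.08, 2.53, 1.75, 2.35 and 2.45. The mgb-/- kidneys were 1.49-fold lower (log2 difference -0.57, SE 0.13, limma adjusted p = 0.0073), 18 of 18 lying below the control mean, although some overlapped with control replicate 5, the lowest control. Within the slides the difference was -0.55, -0.40 and -0.77.

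The Gadd45 proteins bind Cdkn1a and the kinase Cdk1 and relay stress to p38 and JNK signalling. Gadd45g ranged from 5.17 to 6.03 (median 5.73) in control, 6.61 to 7.55 (median 7.15) in mild and 6.20 to 7.19 (median 7.06) in severe kidneys, with 6.41, 7.14, 6.57, 6.48 and 6.80 in the moderate ones. Control and mgb-/- kidneys did not overlap. The log2 difference was 1.26 (SE 0.17, limma adjusted p = 1.4e-04), and the fit with slide as a block gave an adjusted p of 2.1e-04.

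Gadd45b is induced by TGF-beta and NF-kappaB signalling as well as by stress. Its value ran from -0.63 to 0.40 (median -0.21) in control, 0.86 to 1.44 (median 1.12) in mild and 0.44 to 1.95 (median 1.17) in severe kidneys, and was 1.38, -0.09, 0.57, 0.71 and -0.46 in the moderate ones. Mild and severe kidneys lay wholly above the controls, and moderate replicates 2 and 5 lay among them. The log2 difference in mgb-/- kidneys was 1.12 (SE 0.25, limma adjusted p = 0.0070).

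Gadd45a, the family member whose gene carries the best studied p53 site, differed little. Its range was 1.21 to 1.73 (median 1.62) in control, 1.53 to 2.24 (median 1.90) in mild and 1.42 to 1.99 (median 1.73) in severe kidneys, and its moderate values were 2.10, 1.48, 1.71, 1.87 and 2.00. All groups overlapped. The log2 difference was 0.23 (SE 0.11, limma adjusted p = 0.17), and it was 0.39, 0.31 and -0.001 within the slides.

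Btg2 recruits the deadenylase that shortens mRNA tails and slows progression through G1. It ranged from -0.90 to -0.26 (median -0.45) in control, 0.90 to 2.71 (median 1.37) in mild and 1.33 to 2.56 (median 1.77) in severe kidneys, and was 1.67, 1.65, 1.35, 1.29 and 0.63 in the moderate ones. The lowest mgb-/- kidney, moderate replicate 5, was still above the highest control. The mgb-/- kidneys were 4.60-fold higher (log2 difference 2.20, SE 0.26, limma adjusted p = 3.7e-05), and the difference was 2.41, 2.19 and 2.00 within the slides. Among the 10 genes Btg2 had the smallest adjusted p in mgb-/- against control kidneys.

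Plk3 is a kinase that phosphorylates p53 and Cdc25 after stress and is itself an early response gene. Control kidneys ranged widely, from 0.16 to 2.63 (median 1.13), and mild kidneys from 2.58 to 5.37 (median 4.18). Severe kidneys ranged from 2.56 to 4.84 (median 2.87), and the moderate values were 2.96, 3.27, 1.80, 2.55 and 2.99. The overlap came from control replicates 1 and 2, the others being below every mgb-/- kidney. The mgb-/- kidneys were 4.62-fold higher (log2 difference 2.21, SE 0.45, limma adjusted p = 0.0042), with 18 of 18 above the control mean.

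Plk2, which supports centriole duplication and is another p53 target, ranged from -1.80 to -1.35 (median -1.49) in control, -2.02 to -0.82 (median -1.15) in mild and -1.36 to 0.16 (median -1.08) in severe kidneys. Its moderate values were -1.51, -1.32, -1.47, -1.42 and -2.43. Mild kidneys lay on both sides of the controls, and 1 severe kidney, replicate 5, stood far above all others. The log2 difference was 0.26 (SE 0.23, 95% interval -0.22 to 0.74, limma adjusted p = 0.49). Its window shares TGACGTCA with that of Btg2.

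Gdf15 is secreted by stressed epithelium and acts on the brainstem receptor Gfral, whose probes were not among those tested. Its value ran from 0.93 to 1.75 (median 1.39) in control, 1.22 to 3.12 (median 1.98) in mild and 1.43 to 3.83 (median 2.25) in severe kidneys, and was 3.93, 2.57, 1.81, 3.40 and 1.82 in the moderate ones. All moderate kidneys lay above the controls, while some mild and severe kidneys fell among them. The 2.01-fold difference (log2 1.01, SE 0.34, 17 of 18 above the control mean) just missed the threshold (limma adjusted p = 0.054). It passed in 9 of 35 other settings, which included leaving out any of 6 single kidneys, one at a time.

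The grades were then set against the same 6 controls, so the comparisons share their control kidneys. In mild kidneys the genes called were the same 6, with 5 rising where 2.94% of all genes rose and 1 falling where 2.99% fell. Plk3 showed the greatest log2 difference of the 10 there (2.92, SE 0.46, limma adjusted p = 0.0013), followed by Btg2 (2.29), Cdkn1a (2.25), Gadd45g (1.48) and Gadd45b (1.32). The fall of Ccng1 in mild kidneys (-0.51, adjusted p = 0.0465) was at the threshold and did not pass in 20 of 35 other settings.

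In severe kidneys the same 6 genes passed, 5 higher where 6.48% of all genes were higher and 1 lower where 9.19% were lower. The log2 differences were 2.41 for Btg2 (SE 0.31), 2.30 for Cdkn1a (SE 0.46), 1.99 for Plk3 (SE 0.48), 1.34 for Gadd45b (SE 0.27), 1.23 for Gadd45g (SE 0.19) and -0.72 for Ccng1 (SE 0.16). Limma adjusted p-values lay between 9.4e-05 for Btg2 and 0.011 for Plk3. Plk2 came to 0.61 (adjusted p = 0.11) and Mdm2 to 0.23 (adjusted p = 0.091).

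In moderate kidneys, Btg2 (log2 difference 1.83, SE 0.32, limma adjusted p = 0.014) and Gadd45g (0.99, SE 0.20, adjusted p = 0.022) passed, 2 of 10 where 0.637% of all genes rose. Cdkn1a came to 1.71 (adjusted p = 0.074), Plk3 to 1.47 (adjusted p = 0.13) and Gadd45b to 0.59 (adjusted p = 0.27). Gdf15 had its greatest difference of the grades here (1.33, adjusted p = 0.12). The count of 2 ranged from 0 to 3 when single kidneys were left out, and it was 0 without moderate replicate 1.

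**Figure D3:**
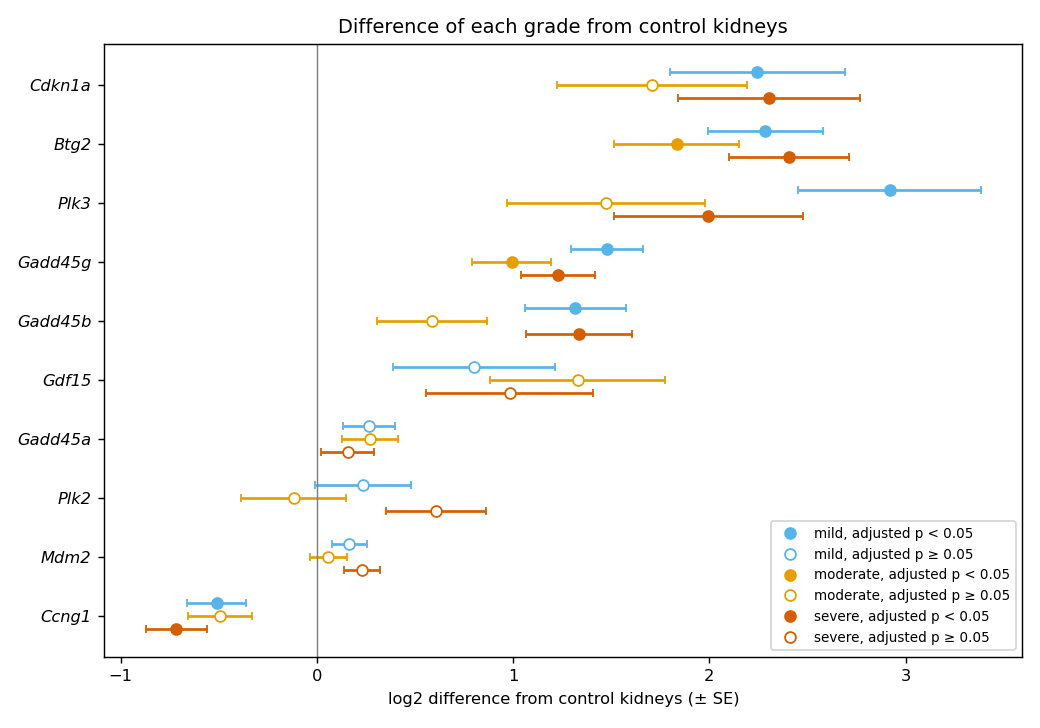
Log2 difference of each grade from the 6 control kidneys (horizontal axis) for the 10 genes, with SE bars from the 4-group limma fit. Filled points had an adjusted p under 0.05. In the moderate grade the filled points are Btg2 and Gadd45g, and Ccng1 is the single gene left of 0 in all 3 grades.

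Between the grades themselves 0 of the 10 genes passed. For severe against mild kidneys, where 0.576% of all genes passed, the lowest limma adjusted p of the 10 was 0.48 and 0 of them had an unadjusted p under 0.05, as 10.8% of all genes did. The difference was 0.060 for Cdkn1a (95% interval -0.86 to 0.98), 0.12 for Btg2 (-0.49 to 0.73) and -0.92 for Plk3 (-1.89 to 0.038). These intervals are wide enough to hold a difference of 1 log2 unit or nearly so for Cdkn1a and Plk3.

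For moderate against mild kidneys, where 0% of all genes passed, Plk3 (-1.44), Gadd45b (-0.73) and Gadd45g (-0.49) passed 0.05 before adjustment, as 6.6% of all genes did, with 0.56 as the lowest limma adjusted p. For severe against moderate kidneys, where 0.00715% passed, Gadd45b (0.75) and Plk2 (0.73) passed 0.05 before adjustment, as 10.2% of all genes did, with 0.37 as the lowest adjusted p. Ordered by group means, Cdkn1a, Btg2 and Gadd45b ran control, moderate, mild, severe, and Plk3 and Gadd45g ran control, moderate, severe, mild. In both orders the steps between the neighbouring grades did not pass the test.

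Kidneys of a grade differed in which of these genes were high. Severe replicate 5 had the highest value of its grade for Cdkn1a (2.21), Gadd45b (1.95), Gdf15 (3.83) and Plk2 (0.16), together with the lowest for Gadd45g (6.20), Plk3 (2.56) and Ccng1 (1.61). It also had the highest value of its grade for the tubular injury marker Lcn2 (5.49, against -0.26 to 2.06 in the other severe kidneys). Moderate replicate 5 had the lowest value of its grade for Cdkn1a, Gadd45b, Btg2 and Plk2 and the highest for Mdm2, and its Lcn2 was -1.15. Moderate replicate 1, with Lcn2 at 6.60, had the highest moderate value for Cdkn1a, Gadd45b, Gdf15, Gadd45a and Btg2 but the lowest for Gadd45g (6.41). Moderate replicate 3, with Lcn2 at 4.30, had the lowest moderate Gdf15 (1.81) and Plk3 (1.80). Lcn2 was 5.32 in moderate replicate 4 and -1.04 in moderate replicate 2. The moderate kidneys high in Lcn2 (replicates 1, 3 and 4) all lay above replicates 2 and 5 for Cdkn1a and Gadd45b. These high-Lcn2 kidneys all lay below replicates 2 and 5 for Gadd45g, Plk3 and Ccng1. For Mdm2, Gadd45a, Btg2, Plk2 and Gdf15 the moderate kidneys with high and low Lcn2 overlapped. How many of all genes part these few kidneys in the same way was not counted. The severe kidneys did not keep this order throughout. Severe replicate 6, with Lcn2 at 1.66, had the lowest severe Cdkn1a (0.13) and Gadd45b (0.44). Severe replicate 3, with the lowest severe Lcn2 (-0.26), had 1.25 for Cdkn1a and 1.11 for Gadd45b. The part of tubular injury in these values was not tested.

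The likeness of genes was measured as Pearson r over the 24 kidneys after the group means were removed, across 27635 genes, and is given as a description, since the kidneys also share slides. Btg2 was most like the immediate early genes Csrnp1 (r = 0.93), Jun (0.87) and Egr1 (0.85). Cdkn1a was most like Arid5a (0.93), an RNA-binding protein that stabilises inflammatory transcripts, Arg2 (0.91), the mitochondrial arginase, and Sema6b (0.91). Plk3 was most like the circadian repressor Ciart (0.89), then Atf4 (0.80) and an unnamed transcript, and Gadd45b was most like Klc3 (0.86), Lck (0.84) and the AP-1 subunit Fosl2 (0.83). Gadd45g was most like the histone gene H2bc21 (0.77), Olfr251 (0.75) and Ndufaf5 (0.74), and Ccng1 was most like an unnamed transcript (0.97), Cox16 (0.94) and Mmgt1 (0.94).

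Gdf15 was most like genes of DNA replication and the cell cycle, namely Pkmyt1 (0.91), Fanci (0.88) and Asf1b (0.87), which themselves had log2 differences of -0.58, -0.81 and -0.68 in mgb-/- kidneys that did not pass. Among the 45 pairs of the 10 genes r ran from -0.69 to 0.77 with a median of 0.18. The highest r was Cdkn1a with Gadd45b (0.77), then Btg2 with Gdf15 (0.72), and the lowest were Ccng1 with Gadd45b (-0.69) and with Cdkn1a (-0.63). Cdkn1a with Mdm2 was 0.003. The 10 genes thus did not vary as 1 block between kidneys of a group.

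The upstream and neighbouring genes of the network were counted from lists. Of 11 genes of p53 and its regulators, 1 rose and 1 fell in mgb-/- kidneys: the p53 inhibitor Mdm4 (log2 difference 0.93, SE 0.25, limma adjusted p = 0.017) and the checkpoint kinase Chek2 (-0.85, SE 0.21, adjusted p = 0.012). The median of that list was -0.055, beside 0.0098 over all genes. Of 15 other arrest and repair targets of p53, 2 rose, the stress protein genes Sesn1 (0.62) and Trp53inp1 (0.54), and 3 fell, namely the ribonucleotide reductase subunit Rrm2b (-0.85), Zmat3 (-0.38) and Ei24 (-0.35), with a median of 0.019.

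Of 9 p53 apoptosis targets, the death receptor Fas (0.70) and Pmaip1 (Noxa, 0.48) rose, and Apaf1, the scaffold of the apoptosome, fell (-1.40), with a median of -0.16. Of 12 other Cdk inhibitors and antiproliferative genes, the Btg2 relatives Tob2 (1.41), Btg1 (0.59) and Btg3 (0.47) rose and the Cdk4 and Cdk6 inhibitor Cdkn2c fell (-0.96), with a median of 0.24. The 3 other polo-like kinases had differences between -1.003 and -0.58, and 0 of them passed.

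Of 15 cell division genes, 0 passed in mgb-/- against control kidneys, though 14 had a negative difference and the median was -0.81. Mki67 came to -0.87 (SE 0.32, limma adjusted p = 0.067) and Top2a to -0.91 (SE 0.38, adjusted p = 0.11). Single kidneys differed widely: Mki67 ran from 0.20 to 3.12 in severe and from 1.76 to 2.53 in control kidneys. In the urothelium alone, the study reported a higher share of Ki-67-positive cells in severe than in control kidneys. Of 8 ATF4 and unfolded protein stress genes 1 rose, the mTOR inhibitor Ddit4 (1.37, SE 0.16, adjusted p = 4.3e-05), while the ATF4 gene itself came to 0.20 (adjusted p = 0.25). All 10 immediate early genes rose, where 5.22% of all genes rose, with a median of 2.64. They were led by Egr2 (4.15), Egr1 (3.64), Nr4a1 (3.20), Fos (3.94) and Jun (1.49) in order of p. The study listed these 5 as raised in these same kidneys. The list was chosen with earlier results of these data known, so its counts are not independent evidence. In mild, moderate and severe kidneys 9, 7 and 10 of the 10 rose, where 2.94%, 0.637% and 6.48% of all genes rose.

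**Figure D4:**
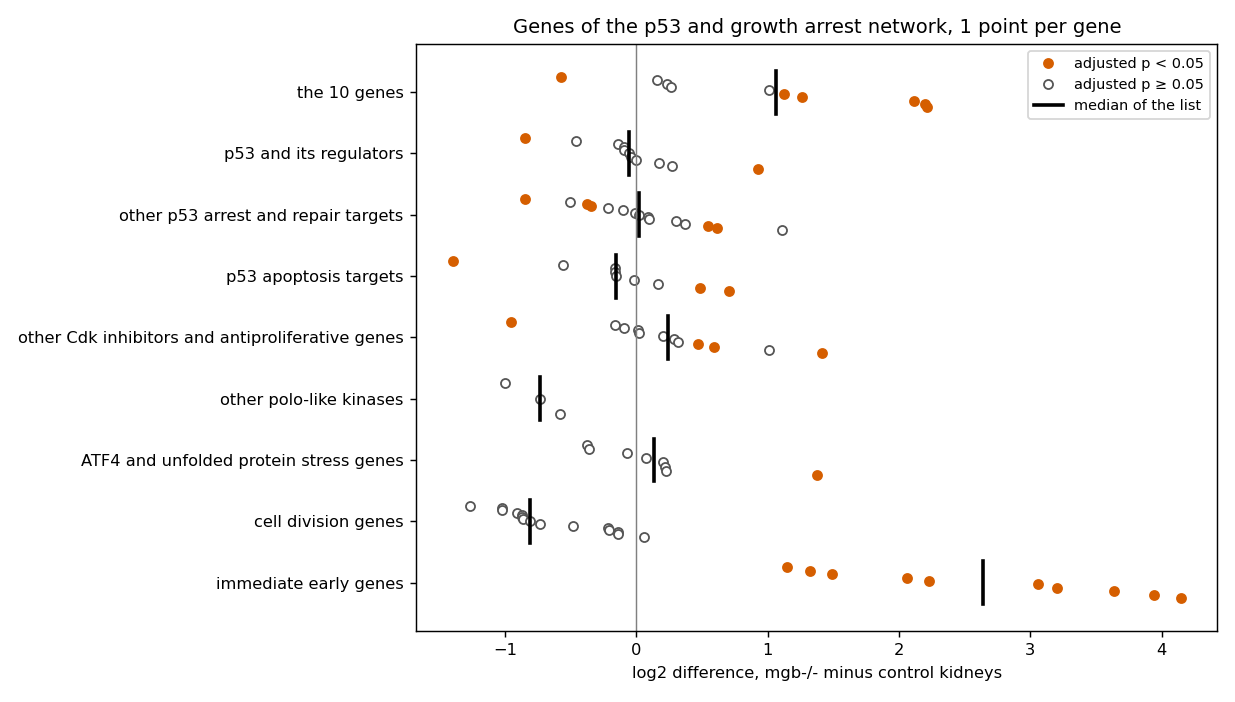
Log2 difference of mgb-/- minus control kidneys (horizontal axis) for the 10 genes (top row) and for 8 lists, 1 point per gene. Filled points had an adjusted p under 0.05, and the vertical bars mark list medians. The immediate early genes all lie right of 1, and 14 of 15 cell division genes lie left of 0. The lists were chosen with earlier results of these data known.

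Markers of other cell types were counted in the same way. Of 7 urothelium markers 0 passed against control in the mild grade, 2 in the moderate and 7 in the severe grade, and 5 passed in severe against mild kidneys. Their summed level on the linear scale, as multiples of the 75th percentile, was 6.41 to 19.0 in control kidneys, 5.45 to 60.2 in the mild grade, 14.3 to 57.1 in the moderate grade and 72.3 to 241 in the severe grade. The severe kidneys lay above all others. The part of the urothelium in the values of the 10 genes was not tested.

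Of 6 leukocyte markers 0 passed in mgb-/- kidneys, and their summed level was 8.43 to 20.0 in control kidneys, 6.99 to 59.6 in the mild grade, 5.03 to 31.7 in the moderate grade and 3.67 to 40.1 in the severe grade. Of 4 fibroblast and smooth muscle markers 1 rose, the contractile actin Acta2 (log2 difference 1.203, SE 0.34, limma adjusted p = 0.023). All 4 had a positive difference from control in each grade, although the lowest, in severe kidneys, was 0.0030. The summed level of the 3 with a value on all arrays was 7.06 to 14.2 in control and 11.1 to 20.7 in mild kidneys. It was 7.04 to 41.0 in moderate and 16.1 to 48.3 in severe kidneys, so the severe kidneys lay above all controls. Of 9 kidney epithelium markers 1 rose, the collecting duct water channel Aqp2 (0.91, SE 0.25, adjusted p = 0.020), and of 3 endothelium markers 0 passed. In severe against control kidneys Aqp2 was higher (1.03), while the proximal tubule glucose transporter Slc5a2 (-1.15, SE 0.34, adjusted p = 0.029) and the endothelial receptor Kdr (-0.39, SE 0.11, adjusted p = 0.026) were lower. In severe against mild kidneys all 9 epithelium markers had a negative difference (median -0.45), and 0 of them passed. Their summed level was 886 to 1095 in control, 833 to 1006 in mild, 665 to 1097 in moderate and 411 to 1074 in severe kidneys, which overlap. The part of these cells in the values of the 10 genes was not tested.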

How the data were processed

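The data are one-colour Agilent arrays, 1 per whole kidney. The authors deposited the scanner output of Agilent Feature Extraction 10.10, whose processed signal is an intensity with background subtracted and spatial trend removed, not normalized between arrays, and a table of normalized intensity values, used as an alternative. From the deposited intensity, log2 values were computed here and the 75th percentile of the array was subtracted. Outlier spots were left out, and a probe had to stand well above background on 5 or more arrays (38834 of 55681 did). RefSeq (GRCm38.p6) named 26762 probes, and the brightest probe of each of 27958 genes was used. No probe coordinates are given, since the array design uses another build.

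Groups came from the labels. Comparisons used limma 3.58.1 (R 4.3.3), fitted to 2 groups for all mgb-/- kidneys and to 4 groups for the grades, Benjamini-Hochberg over all genes and a threshold of 0.05. The fit was tested on simulated data. Figures used matplotlib 3.10.9 (Python 3.11). The number of arrays limits the precision. The 10 genes and the lists were chosen with earlier results of these data known. Named genes are all 10, up to 5 called genes of each list by p or its first 2 where none passed, and the 3 most alike genes of the 6 called genes and Gdf15. Alternatives were quantile and median scaling, normexp (offset 50), the authors' table, other filters, the mean of probes, blocks for slide and replicate number, array quality weights, separate fits, other thresholds and leaving out each kidney.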

Additional observations from a re-analysis of the deposited data

Results flagged for a closer look

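Of 40 groups of values (10 genes in 4 groups), 4 had 1 kidney far from the rest, judged by the gap to the nearest kidney over the range of the group (Dixon's test at the 95% level). Chance gives this in about 1 of 20 groups. Mdm2 was lowest in mild replicate 1 (2.86, nearest 3.15). Gadd45g was lowest in severe replicate 5 (6.20, nearest 6.87). Plk2 was lowest in moderate replicate 5 (-2.43, nearest -1.51) and highest in severe replicate 5 (0.16, nearest -0.84).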

How the results depend on the processing

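Over 37 other settings the number of the 10 genes called ranged from 5 to 9 for mgb-/- against control kidneys, from 5 to 9 for mild, from 5 to 7 for severe, and was 0 throughout between grades. For moderate kidneys the 2 calls became 1 with scaling by the median, 1 with the fit on the compared groups alone, 1 with a 2-fold minimum, 6 with array quality weights and 0 with the replicate number as a block (replicate block), and ran from 0 to 3 when each kidney was left out in turn. Same-numbered kidneys of different groups had a median r of 0.0048 (33 pairs, from -0.55 to 0.65). Differently numbered ones had a median r of 0.0036 (182 pairs, from -0.67 to 0.58). As a set, same-numbered kidneys thus deviated together no more than others. A median cannot tell whether single pairs shared an animal, and kidneys of the same group were not compared.

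Of 2450 recomputed differences 35 changed sign, 31 of them between grades and 0 where the difference had passed. With scaling by the median these were Mdm2 in moderate against control kidneys (-0.088), Gadd45a in severe against control (-0.020) and Gadd45b in severe against mild (-0.011). With array quality weights they were Cdkn1a (-0.17), Gadd45b (-0.014) and Gdf15 (-0.068) in severe against mild kidneys and Gadd45a in moderate against mild (-0.032), which was -0.00663 with slide as a block and -0.021 with the replicate block. Normexp gave -0.0041 for Ccng1 in moderate against mild kidneys. Leaving out single kidneys gave -0.024 to 0.10 for Mdm2 and -0.20 to 0.081 for Plk2 in moderate against control, -0.21 to 0.32 for Cdkn1a, -0.14 to 0.16 for Gadd45b, -0.026 to 0.28 for Btg2 and -0.11 to 0.37 for Gdf15 in severe against mild, and -0.057 to 0.14 for Ccng1 and -0.065 to 0.090 for Gadd45a in moderate against mild. The causes were not tested.

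Scaling by the median moved the median of all genes in mgb-/- against control kidneys from 0.0098 to -0.15 and the rising share of called genes from 39.8% to 17.6%. Over settings that kept all kidneys, the number of all genes called went from 3667 to between 2057 (replicate block) and 8508 (array quality weights) for mgb-/- against control kidneys. It went from 1658 to between 496 and 7387 for mild and from 332 to between 24 and 3134 for moderate kidneys under the same 2 settings, from 4382 to between 1767 (separate fits) and 7393 (array quality weights) for severe kidneys, and from 161 to between 0 (separate fits) and 541 (array quality weights) for severe against mild.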
